A study of Macaca mulatta with 24 samples.

Results

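Gene expression in the colon of rhesus macaques was compared between day 12 and day 4 after total-body irradiation (TBI), the exposure of the whole animal to 1 uniform dose of gamma radiation from cobalt. The arrays were chosen by the day and dose in their sample labels. They were 4 arrays of day 12 (2 animals after 6.7 Gy and 2 after 7.4 Gy) and 8 arrays of day 4 (4 animals after 6.7 Gy and 4 after 7.4 Gy), 12 of the 24 arrays of the series. Of the remaining arrays, 4 came from sham-irradiated animals labelled day 4, called control below, and 8 from day 7. All animals were young-adult males of Macaca mulatta, and each array carried Cy3-labelled total RNA from a short piece of the whole colon wall of 1 animal. The comparison asks how far the colon at the last time point differed from the colon at the first time point, with dose as a covariate. A text field of the labels names a different last day than the sample titles, and the titles were followed.

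The lining of the colon is renewed without pause. Stem cells at the base of the crypts divide, their daughters stop dividing as they move up, and they end as absorptive colonocytes, mucus-making goblet cells or hormone-making enteroendocrine cells before they are shed from the surface. Radiation damages the dividing cells, in which the p53 protein switches on genes of arrest and cell death, so that the supply of new surface cells fails for some days while old ones are still shed. Until the crypts regrow, the mucosa loses absorptive surface and barrier, and chemokines and antimicrobial proteins of the epithelium and of recruited leukocytes increase.

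The level of a probe is given below as log2 of its signal relative to the 75th percentile of its array, so that 0 is the signal of a probe at that percentile, and differences between days are in log2 units with the standard error (SE) of the fit. Before scaling, the 75th percentile of the processed signal was 686 to 743 on the day 12 arrays and 785 to 971 on the irradiated day 4 arrays, which do not overlap. Between 66.7% and 85.0% of probes lay well above background on the 4 day 12 arrays and between 71.4% and 82.6% on the 8 day 4 arrays. The first array of day 12 after 6.7 Gy had 712 outlier spots, against 24 to 153 on the other 11 arrays. Every day 12 array lay at array position 4 of its slide and every irradiated day 4 array at position 1 or 2, so that day and array position cannot be told apart. Slides 3 to 6 held arrays of both days.

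The tissue matched its label. Carbonic anhydrase 1, guanylin, aquaporin 8 and keratin 20, all markers of the colon surface, were well above background on all 4 control arrays, and so were smooth muscle actin (ACTG2) and desmin (DES) of the muscle coat. None of 9 smooth muscle genes passed between the days by limma, nor did any at an unadjusted p under 0.05 or in 28 alternatives, with a median difference of 0.03. Their summed level overlapped between the groups, at 478 to 938 on day 12, 268 to 936 on day 4 and 592 to 936 in controls, in units of the 75th percentile of the array. In bulk tissue, fewer cells of a type and less RNA per cell cannot be told apart.

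Across the array, 2486 of 38214 probes (6.51%) differed between day 12 and day 4, that is, passed both an adjusted p under 0.05 and a difference of at least 2-fold, of which 1463 (3.83%) were higher and 1023 (2.68%) lower on day 12. With 1 probe per gene, 1029 of 13453 named genes differed (7.65%), 556 (4.13%) higher and 473 (3.52%) lower, and the median difference over all genes was 0.05. By the same rule 2198 probes (5.75%) differed between day 4 and control and 24 (0.0628%) between day 12 and control. These comparisons held 8 and 4 irradiated arrays, so that the power behind the counts was unequal. At an unadjusted p under 0.05 by limma and at least 2-fold, the counts were 2568 and 599. Of the 556 genes higher on day 12, 347 had a day 12 mean inside the range of the 4 control arrays (62.4%) and 68 had a day 4 mean inside it (12.2%). Of the 473 genes lower on day 12, 295 had a day 12 mean inside the control range (62.4%) and 51 a day 4 mean inside it (10.8%). Over all genes tested the shares were 70.7% and 51.3%. These shares describe the levels and carry no test, since the genes were chosen on the day 4 and day 12 arrays.

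The gene with the highest difference was CA1, a carbonic anhydrase of mature surface colonocytes. It stood at 0.95, 1.49, 0.70 and 1.16 on the 4 day 12 arrays, while the 8 day 4 arrays ran from -7.69 through a median of -6.35 to -3.21 and only 3 of them were well above background. No array of one day reached the range of the other, a condition by which all of the 12 highest and 12 lowest genes were chosen. The difference was 6.90 ± 0.84 (SE), or 119-fold (adjusted p = 3.07e-05), and on the 4 slides that carried both days it was 5.49 to 8.22. The control arrays lay at 0.67 to 1.32, around the day 12 values.

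Other genes among the 12 highest carry out transport, metabolism and signalling of the surface epithelium. CHP2, a partner of sodium-proton exchangers, differed by 5.03 ± 0.71 (adjusted p = 9.34e-05), and PCK1, the gluconeogenic enzyme phosphoenolpyruvate carboxykinase, by 4.95 ± 0.85 (adjusted p = 0.000453). They were 32.6-fold and 31.0-fold higher on day 12, and their 4 day 12 arrays lay above all 8 day 4 arrays. BEST2, an anion channel of colonic goblet cells, stood at 1.0 to 2.52 on day 12 and at -5.92 to -0.87 on day 4, a 25.1-fold difference (adjusted p = 7.73e-05). TMIGD1, an adhesion molecule of the epithelial surface, was 22.5-fold higher (adjusted p = 0.00191).

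Also among the 12 highest were SLC26A3, the chloride-bicarbonate exchanger of the colon surface, at 4.95, 4.05 and 4.34 on 3 day 12 arrays (the spot of the second 6.7 Gy array was an outlier and was left out) against -1.94 to 2.59 on day 4, and PDZD3, a scaffold protein that binds the intestinal receptor for guanylin peptides. PDZD3 differed by 3.52 ± 0.46 (adjusted p = 5.81e-05). GUCA2B, which encodes uroguanylin, a ligand of that receptor, stood at 6.45, 6.55, 5.76 and 5.93 on day 12 and ran from -0.52 through 3.03 to 4.55 on day 4, a 14.1-fold difference (adjusted p = 0.00104). The hormone genes GIP and INSL5, described with the enteroendocrine cells, belonged to the same set, and so did C13H2orf74, a gene of unknown role that was well above background on all 4 day 12 arrays and on 1 of 8 day 4 arrays.

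**Figure D1:**
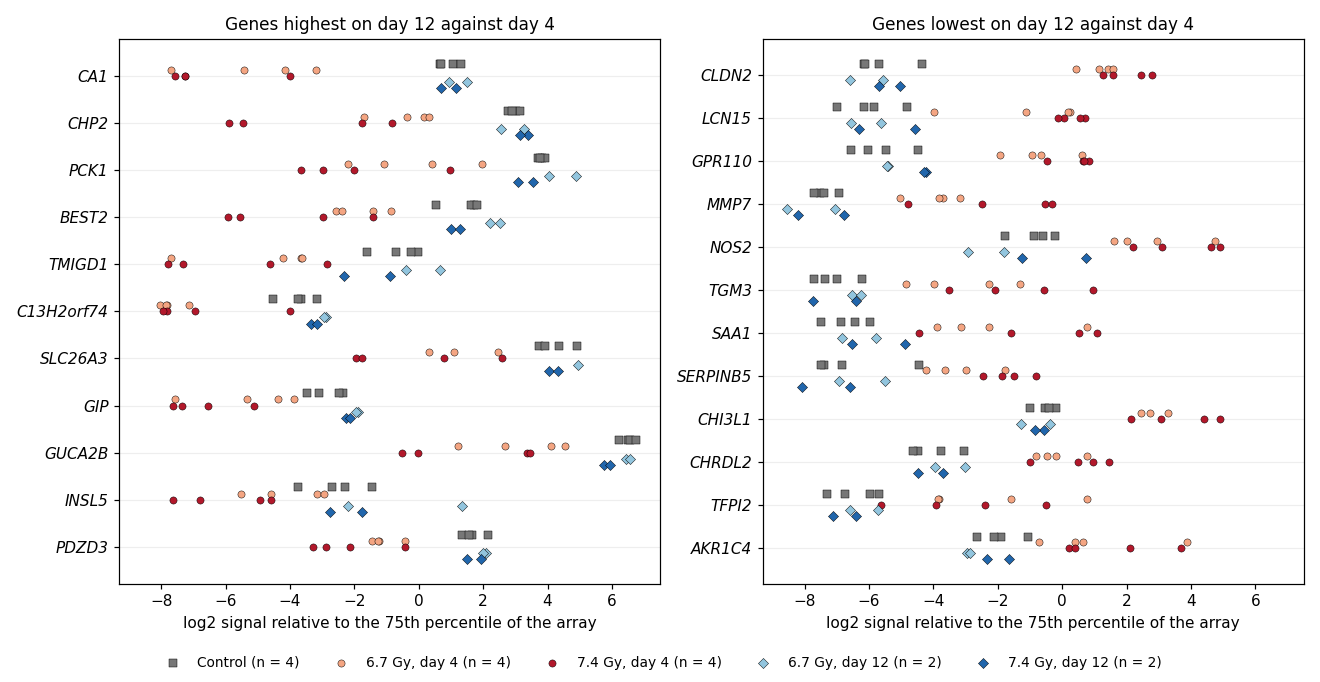
Level of 11 of the 12 highest (left) and of the 12 lowest (right) genes on day 12 against day 4, each point 1 array, on the log2 scale relative to the 75th percentile of the array (x axis). Squares are controls, circles day 4 and diamonds day 12, coloured by dose. The genes were chosen so that no day 12 point of a gene overlaps its day 4 points. Most day 12 points lie near the controls.

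At the other end, the lowest difference was that of CLDN2, the claudin that forms a pore for cations and water in leaky epithelia. It stood at -6.58, -5.55, -5.03 and -5.69 on the day 12 arrays and ran from 0.43 through 1.49 to 2.78 on day 4, so the gap between the groups was wider than the spread within either. The difference of -7.30 ± 0.81 was 157-fold (adjusted p = 1.45e-05), and on the 4 slides with both days it was -9.05 to -6.82. Only 2 of 4 day 12 arrays and 1 of 4 control arrays were well above background, with controls at -6.14 to -4.37. Of all genes, 7.2% had every day 12 array below every day 4 array.

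The other 11 had varied roles. NOS2, the inducible nitric oxide synthase, stood at -1.81, -2.93, 0.76 and -1.25 on day 12 and ran from 1.61 through 3.04 to 4.90 on day 4, a 23.9-fold difference (adjusted p = 0.000522). SAA1, an acute-phase apolipoprotein, differed by -4.39 ± 1.04 (adjusted p = 0.00517), with 1 of 4 day 12 arrays well above background. Another of its probes passed at -3.18 (adjusted p = 0.0149), and a further probe differed by -1.22 and did not pass (adjusted p = 0.323). CHI3L1, a chitinase-like protein of inflamed tissue, was 15.9-fold lower (adjusted p = 5.11e-05). MMP7, the epithelial metalloproteinase matrilysin, was not well above background on any day 12 or control array. It was at least 7.15-fold lower on day 12 by the processed signal (adjusted p = 0.000593). This bound was set by the dimmest signal that was still well above background. Such bounds, here and below, hold only for the background subtraction of the processed signal.

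LCN15, a lipocalin, was 40.2-fold lower (adjusted p = 3.11e-05) and GPR110, an adhesion receptor, 25.8-fold lower (adjusted p = 6.72e-05). TGM3, a transglutaminase that cross-links proteins in stratified epithelia, and SERPINB5, a serpin of epithelial cells, were 23.1-fold (adjusted p = 0.0017) and 20.7-fold (adjusted p = 0.000357) lower. LCN15, TGM3 and SERPINB5 were each well above background on 1 of 4 day 12 arrays and on all 8 day 4 arrays, so that the size of these folds rests on signals near background. CHRDL2, an antagonist of bone morphogenetic proteins, was 15.4-fold lower (adjusted p = 9.58e-05), TFPI2, a serine protease inhibitor, 14.4-fold (adjusted p = 0.00547) and AKR1C4, an aldo-keto reductase of steroid metabolism, 13.6-fold (adjusted p = 0.00273). TFPI2 was also well above background on 1 of 4 day 12 arrays. With the normexp background correction, which adds an offset of 50 to the signal, all of the highest and lowest genes given here kept their calls, but the dim ones had smaller folds. These were 2.88-fold for TGM3, 2.69-fold for SERPINB5, 2.59-fold for TFPI2, 2.55-fold for MMP7, 2.61-fold for C13H2orf74 and 6.84-fold for LCN15. CLDN2 and CA1 stood at 31.1-fold and 19.7-fold.

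Mature surface colonocytes gave the most uniform list. Of 19 genes tested, 15 were higher on day 12 and none lower, against 4.13% higher over all genes, and the median difference was 2.44. The counts of each list below stand against the same shares of all genes, 4.13% higher and 3.52% lower. For all 15 the day 12 arrays lay above every day 4 array, against 8.46% of all genes. The summed level of the list was 706 to 838 on day 12 and 57.2 to 353 on day 4, with controls at 591 to 912. Besides the genes above, the water channel AQP8 stood at 7.17, 7.24, 7.80 and 7.08 on day 12 and ran from 1.33 through 4.24 to 6.61 on day 4, an 8.24-fold difference (adjusted p = 0.00621). GUCA2A, which encodes guanylin, was 7.93-fold higher (adjusted p = 0.000858), the steroid dehydrogenase HSD17B2 6.80-fold (adjusted p = 0.000338) and the sulfate transporter SLC26A2 5.41-fold (adjusted p = 0.00216). CA2, a cytosolic carbonic anhydrase, was 5.35-fold higher (adjusted p = 0.0006) and the cell cycle inhibitor CDKN2B 4.04-fold (adjusted p = 6.97e-05).

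Keratin 20 (KRT20), the keratin of cells that have left the crypt, was 3.15-fold higher on day 12 (adjusted p = 1.78e-05). Its levels were 6.71, 6.19, 6.58 and 6.77 on day 12 against 4.15 to 5.35 on day 4, and its controls lay at 6.12 to 6.59, among the day 12 values. SLC51B, a subunit of the bile acid exporter, and CDHR5, a cadherin of the brush border, were 2.99-fold (adjusted p = 0.000155) and 2.06-fold (adjusted p = 0.000906) higher. CA4, MS4A12, BEST4 and SLC51A did not pass, with differences of -0.89, 0.44, 1.36 and 0.73. The count of 15 ran from 13 to 15 over 28 alternative settings.

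**Figure D2:**
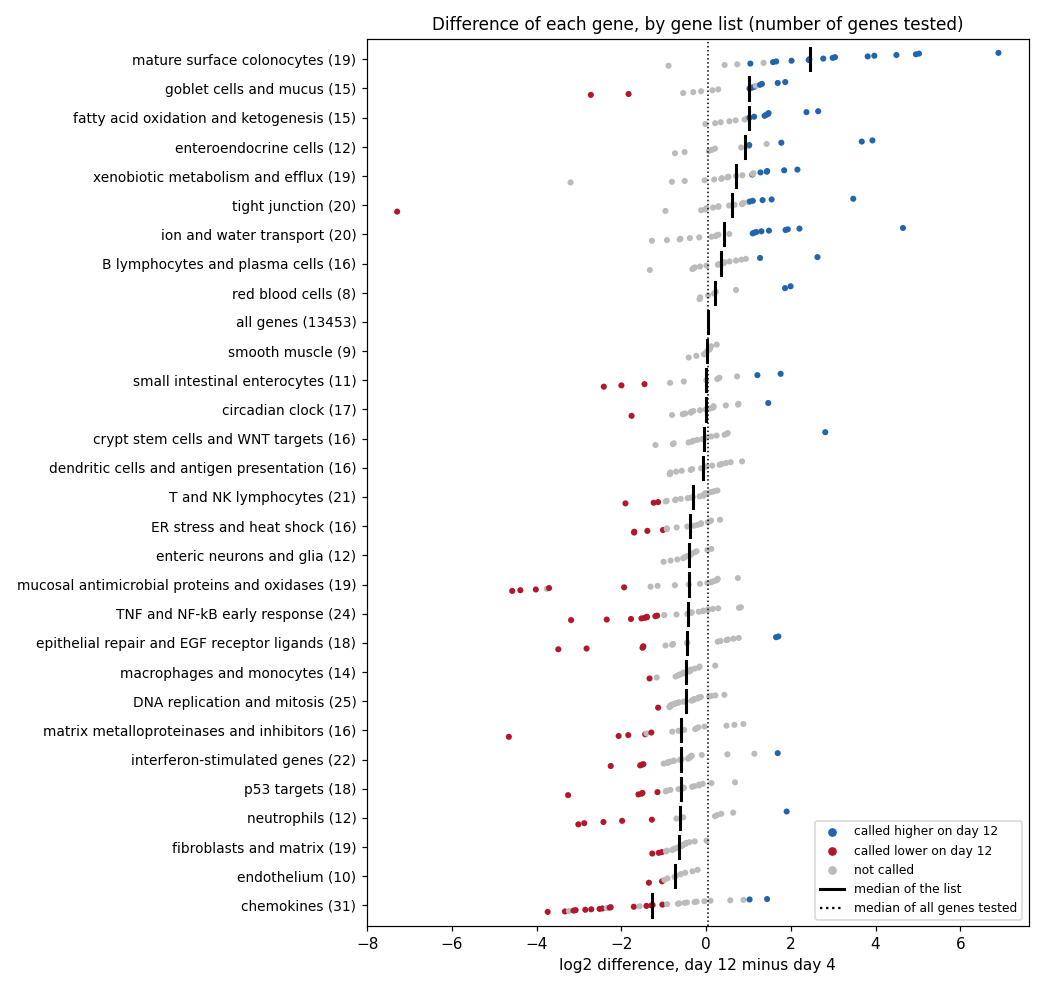
Log2 difference of day 12 minus day 4 (x axis) for each tested gene of the 29 gene lists (rows, number of genes tested in brackets), ordered by the median of the list. Blue points passed the test as higher and red points as lower on day 12, grey points did not pass, black bars are list medians and the dotted line is the median of all genes, 0.05.

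Genes of ion and water transport followed in part. Of 20 tested, 9 were higher and none lower, with a median difference of 0.42. HSD11B2, which protects the mineralocorticoid receptor from cortisol, was 4.60-fold higher (adjusted p = 0.000192), and that receptor, NR3C2, was 2.79-fold higher (adjusted p = 0.000403). SCNN1A, the alpha subunit of the epithelial sodium channel that aldosterone controls through this receptor, was 3.80-fold higher (adjusted p = 0.00106). The other subunits of the channel did not pass, SCNN1B with a difference of 0.25 (adjusted p = 0.117) and SCNN1G with -1.28 (adjusted p = 0.128). The bicarbonate cotransporter SLC4A4 was 3.67-fold higher (adjusted p = 0.000451), the chloride channel CFTR 2.27-fold (adjusted p = 0.00941), the water and glycerol channel AQP3 2.20-fold (adjusted p = 0.0025) and the sodium-proton exchanger SLC9A2 2.14-fold (adjusted p = 0.000341). The proton pump ATP12A was dim, well above background on 1 of 4 day 12 arrays, and its 2.47-fold difference (adjusted p = 0.0477) was lost under 19 of 28 alternatives.

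Tight junctions seal the space between epithelial cells, and their claudins set which ions pass. Of 20 genes tested, 5 were higher on day 12, 1 was lower (CLDN2), and the median difference was 0.61. CLDN8, a sealing claudin of the distal colon, moved opposite to the pore-forming CLDN2. It stood at 2.04, 1.31, 0.89 and 1.77 on day 12 and ran from -4.03 through -2.30 to 0.34 on day 4, an 11.1-fold difference (adjusted p = 8.08e-05). TJP3, a scaffold protein of the junction, was 2.92-fold higher (adjusted p = 0.000232), CLDN7 2.52-fold (adjusted p = 0.000147), occludin (OCLN) 2.14-fold (adjusted p = 0.000211) and cingulin (CGN) 2.05-fold (adjusted p = 0.00115). CLDN1, CLDN3, CLDN4 and CLDN15 did not pass, with differences of -0.96, 0.85, 0.88 and 0.54.

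Colonocytes burn butyrate made by the gut bacteria, a process that needs uptake and beta oxidation. Of 15 genes of fatty acid oxidation and ketogenesis, 8 were higher on day 12 and none lower, with a median difference of 1.02. SLC16A1, the monocarboxylate transporter that takes up butyrate, led the list at 2.98, 2.68, 2.25 and 2.60 on day 12 against -0.92 to 0.83 on day 4, a 6.25-fold difference (adjusted p = 1.26e-05). The beta oxidation enzymes HADH, ACADM, ACADS and ETFDH were 2.78-fold, 2.67-fold, 2.60-fold and 2.19-fold higher, with adjusted p of 0.000106, 0.000295, 0.000109 and 0.0025. The coactivator PPARGC1A was 2.75-fold higher (adjusted p = 0.00571) and the nuclear receptor PPARA 2.03-fold (adjusted p = 5.1e-05). The call of PPARA, just past 2-fold, was lost under 10 of 28 alternatives.

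Genes of drug and xenobiotic metabolism showed a smaller shift, with 6 of 19 higher, none lower and a median difference of 0.71. ABCC2, an efflux pump for conjugates, stood at -0.96, -1.14, -1.40 and -1.66 on day 12, above both the day 4 arrays (-4.14 to -2.62) and the control arrays (-3.20 to -2.19). It was 4.45-fold higher than on day 4 (adjusted p = 1.35e-05), and a second, dim probe of the gene differed by 0.02. The efflux pump ABCB1 was 3.59-fold higher (adjusted p = 0.00291), the glucuronosyltransferase UGT1A1 2.71-fold (adjusted p = 0.000624), the carboxylesterase CES2 2.70-fold (adjusted p = 6.9e-05) and NR1I2, the pregnane receptor that controls several of these genes, 2.43-fold (adjusted p = 0.000235). Adjusted p for SULT1B1, a sulfotransferase at 2.13-fold, was 0.0258, and its call was lost under 11 alternatives.

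Goblet cells make the mucus of the colon. Of 15 genes tested, 7 were higher and 2 lower, and the median difference was 1.02. Their summed level was 477 to 499 on day 12, 89.1 to 351 on day 4 and 376 to 485 in controls. ST6GALNAC1, the sialyltransferase of mucin sugars, was 3.65-fold higher (adjusted p = 0.000175), ATOH1, the transcription factor that sets the secretory fate, 3.23-fold (adjusted p = 0.00123), and FCGBP, a protein of the mucus gel, 2.49-fold (adjusted p = 0.00747). ZG16, a lectin that keeps bacteria at a distance, was 2.41-fold higher (adjusted p = 0.015) and the trefoil factor TFF3 2.21-fold (adjusted p = 0.0122). MUC2, the main gel-forming mucin, stood at 5.0, 4.81, 5.05 and 4.96 on day 12 against 2.67 to 4.67 on day 4, a 2.03-fold difference (adjusted p = 0.0134), and a second probe differed by 0.17 without passing. The calls of MUC2 and of the secreted protease CLCA1 (2.13-fold, adjusted p = 0.0363) were lost under 9 and 11 alternatives.

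The 2 goblet cell list members that were lower were trefoil factors of the stomach and of healing mucosa. TFF1 stood at 0.55, -1.42, 1.72 and -0.28 on day 12 and ran from 2.05 through 2.85 to 3.82 on day 4, a 6.60-fold difference (adjusted p = 0.0209). TFF2 was 3.56-fold lower (adjusted p = 0.00376), with the second 7.4 Gy array of day 12 at 2.67, inside the day 4 range. The 3 trefoil genes thus did not move together.

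Enteroendocrine cells are rare hormone-making cells of the epithelium. Of 12 genes tested, 4 were higher and none lower, with a median difference of 0.91. INSL5, a peptide of colonic L cells, stood at 1.33, -2.19, -1.77 and -2.77 on day 12, and the 8 day 4 arrays from -7.64 through -4.77 to -2.96 lay below all of them, a 12.8-fold difference (adjusted p = 0.000753). The first 6.7 Gy array of day 12 stood far above the other 3 and above the controls at -3.74 to -1.45. PYY, another L cell hormone that slows the gut, was 3.42-fold higher (adjusted p = 0.000927). GIP, an incretin known from the upper small intestine, differed by 3.93 ± 0.51 (adjusted p = 5.59e-05), with all 4 day 12 arrays and 3 of 8 day 4 arrays well above background. PAX6, a factor of endocrine differentiation, was 2.02-fold higher (adjusted p = 0.0046), a call lost under 13 alternatives. The general endocrine marker CHGA and GCG, which encodes the L cell hormone precursor proglucagon, did not pass, with differences of -0.51 and 0.21. The summed level of the list overlapped between the days and its median was lower on day 12, at 51.7 to 71.2 (median 64.1) against 57.7 to 99.9 (median 85.1), with controls at 12.2 to 92.3.

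Markers of small intestinal enterocytes had no common direction, with 2 of 11 higher, 3 lower and a median of 0.00. The fatty acid binding protein FABP1 was 2.31-fold higher (adjusted p = 0.000432) and the apolipoprotein gene APOC3 3.38-fold (adjusted p = 5.33e-05). The sodium-glucose transporter SLC5A1 was 2.74-fold lower (adjusted p = 0.00601), APOB 4.00-fold lower (adjusted p = 0.00665) and CPS1, the urea cycle enzyme, 5.34-fold lower (adjusted p = 0.0287). With the normexp background correction none of the 3 lower genes passed.

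Crypt stem cell markers and WNT targets differed little. Of 16 tested, 1 was higher (6.2%, against 4.13% of all genes) and none lower, with a median of -0.06. The gene that passed was PROM1 (prominin-1), a membrane protein that is found on stem cells and also at the surface of differentiated epithelium. It stood at -0.49, -0.42, -0.42 and 0.22 on day 12 and from -4.70 through -3.07 to -2.17 on day 4, a 7.02-fold difference (adjusted p = 0.000101). LGR5, the stem cell receptor, stood at -2.98 to -2.49 on day 12 and -3.61 to -2.31 on day 4, and its difference of 0.12 ± 0.17 did not pass (adjusted p = 0.639). ASCL2 and MYC did not pass either, with differences of -0.79 and -0.01. OLFM4, another stem cell marker, was well above background on at least 1 day 4 array but not on any day 12 or control array. Its difference of -1.20 did not pass and rests on signals near background. On the slides with both days it ran from -4.64 to 0.74.

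Of 25 genes of DNA replication and mitosis, 1 was lower on day 12 (4%, against 3.52% of all genes) and none higher, and the median was -0.48. BIRC5, the mitotic inhibitor of apoptosis survivin, was 2.19-fold lower (adjusted p = 0.00257), with day 12 arrays at -2.67 to -2.03 below day 4 arrays at -1.77 to -0.70. A second probe of BIRC5 differed by -0.73 without passing. TYMS, thymidylate synthase, named here after its values were seen, differed by -0.87 by its brightest probe (adjusted p = 0.00793), under 2-fold, and its 3 other probes passed, at -1.41, -1.14 and -1.19. The summed level of the list was 65.5 to 89.8 on day 12, 93.8 to 151 on day 4 and 71.2 to 87.2 in controls, so that the 2 days did not overlap in the sum.

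Of 18 p53 targets tested, 5 were lower on day 12 than on day 4 and none higher, with a median of -0.60, and the count was 5 or 6 over the 28 alternatives. GDF15, a stress hormone that p53 induces, stood at 1.98, 2.15, 1.55 and 2.09 on day 12 and ran from 3.81 through 5.32 to 5.93 on day 4, a 9.58-fold difference (adjusted p = 1.26e-05). PHLDA3, an inhibitor of AKT signalling, was 3.03-fold lower (adjusted p = 0.000126), the death receptor EDA2R 2.87-fold (adjusted p = 6.94e-05), ZMAT3, an RNA-binding protein, 2.84-fold (adjusted p = 2.22e-06) and the DNA repair protein DDB2 2.22-fold (adjusted p = 5.81e-05). CDKN1A, the arrest protein p21, differed by -0.96 and missed the 2-fold threshold, and MDM2, the brake on p53 itself, differed by -0.08 by its brightest probe, while a second probe, well above background on all 12 arrays, was lower by 1.05 on the log2 scale and passed (adjusted p = 0.00122).

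For GDF15, EDA2R, ZMAT3 and DDB2 the 4 day 12 arrays lay between the other groups, above all 4 controls and below all 8 day 4 arrays. This placed 4 of 18 p53 targets above the control range, against 3.69% of all genes tested, and 3 of 15 goblet cell genes did so too. The median difference of the p53 targets from control on day 12 was 0.16. GDF15 controls stood at 0.17 to 0.81 and the day 12 mean was higher by 1.52 ± 0.40, which did not pass across all probes (adjusted p = 0.226). For ZMAT3 the difference from control was 0.82 ± 0.15 (adjusted p = 0.0463), under 2-fold, for EDA2R 1.04 ± 0.24 (adjusted p = 0.138) and for DDB2 0.60 ± 0.18 (adjusted p = 0.265).

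**Figure D3:**
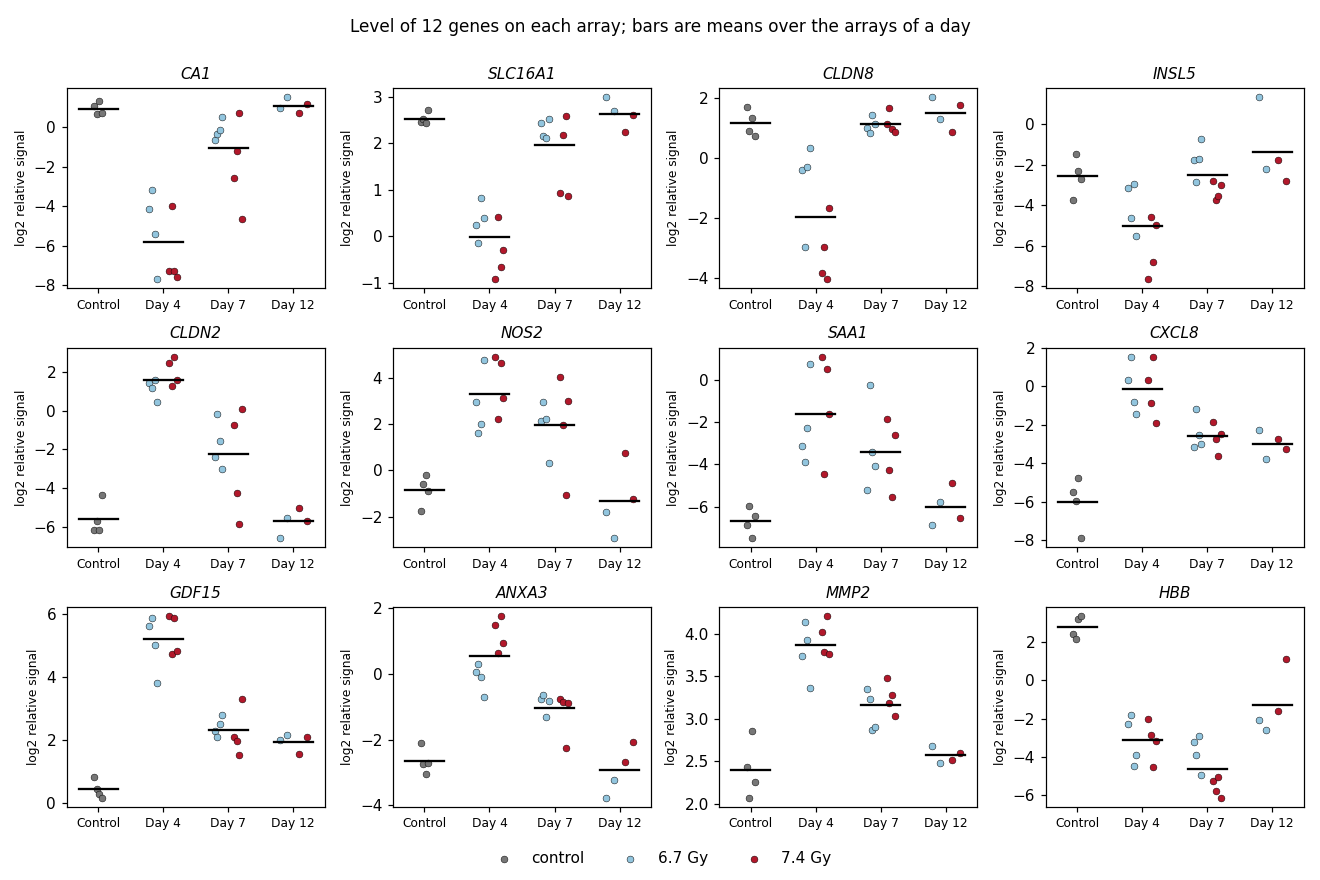
Level of 12 genes on every array of the series (y axis, log2 relative to the 75th percentile of the array) in controls and on days 4, 7 and 12 (x axis), with 6.7 Gy and 7.4 Gy in separate colours and the mean of each day as a bar. CA1, SLC16A1, CLDN8 and INSL5 are low on day 4, CLDN2, NOS2, SAA1, CXCL8, GDF15, ANXA3 and MMP2 are high on day 4, and HBB is below control on all days.

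Genes of epithelial repair split, with 2 of 18 higher, 5 lower and a median of -0.45. A keratin gene counted as not passing, at 0.48 by its brightest probe, had other probes that passed as lower, at -3.49 and -4.92. ANXA3, a calcium-dependent membrane-binding annexin, had the smallest adjusted p of the genes named here (5.99e-07). It stood at -3.76, -3.23, -2.68 and -2.06 on day 12 and ran from -0.69 through 0.47 to 1.77 on day 4, an 11.2-fold difference. Epiregulin (EREG), a ligand of the EGF receptor, was 7.08-fold lower (adjusted p = 0.00596) and annexin A1 (ANXA1) 2.83-fold lower (adjusted p = 0.000432). CTGF and CYR61, matricellular proteins and targets of YAP, were 2.81-fold (adjusted p = 0.0353) and 2.80-fold (adjusted p = 0.0176) lower. The call of CTGF was lost under 9 of 28 alternatives. The receptor ERBB2 was 3.14-fold higher (adjusted p = 0.000131) and the keratin KRT17 3.26-fold (adjusted p = 0.00219), a ligand and a receptor of the family on opposite sides.

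Chemokines gave the largest group of lower genes, 15 of 31, against 3.52% of all genes, with 2 higher and a median of -1.29. Neutrophil-attracting CXC chemokines were among its largest differences. CXCL1 stood at -1.88, -2.48, -1.70 and -1.86 on day 12 and ran from 0.62 through 1.02 to 2.99 on day 4, a 10.1-fold difference (adjusted p = 6.58e-05). CXCL3 and CXCL2 were 8.77-fold (adjusted p = 2.07e-05) and 8.47-fold (adjusted p = 0.000107) lower. CXCL8, interleukin-8, was 7.23-fold lower than on day 4 (adjusted p = 0.00432). Its day 12 arrays, at -2.27, -3.77, -2.75 and -3.23, also lay above all 4 controls, of which 1 was well above background, by 3.01 ± 0.76, which did not pass (adjusted p = 0.197).

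Chemokines for other leukocytes were lower too. CCL19, which guides T cells and dendritic cells, was 6.56-fold lower (adjusted p = 0.00104) and CCL20, which draws T cells and immature dendritic cells to the epithelium, 4.77-fold (adjusted p = 0.00529). The interferon-inducible CXCL10 and CXCL11 were 5.72-fold (adjusted p = 0.00522) and 4.85-fold (adjusted p = 0.00712) lower, while CXCL9 of the same family differed by -2.35 ± 0.97 and did not pass (adjusted p = 0.082). CCL2, the main attractant of monocytes, was 2.66-fold lower (adjusted p = 0.0054). CCL23 was 13.4-fold lower (adjusted p = 0.00415), but a second probe of it, well above background on all 12 arrays, differed by 0.04. CCL18 and CCL24 were higher by 2.71-fold (adjusted p = 0.0214) and 2.04-fold (adjusted p = 0.00263), and the call of CCL24 was lost under 10 alternatives. Over the 28 alternatives the count of lower chemokines ran from 12 to 17. The summed level of the neutrophil markers was also lower on day 12, at 1.19 to 1.85 against 1.89 to 12.8 on day 4, and that of the endothelial markers was 4.42 to 6.78 against 7.98 to 12.8. Their part in the result was not tested.

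Targets of TNF and NF-kB, the early inflammatory program, were lower in 9 of 24 and higher in none, with a median of -0.43. IL1A was 9.12-fold lower (adjusted p = 0.00176) and IL1B 5.09-fold (adjusted p = 0.00624), both of them interleukin-1 cytokines. IER3, an early response gene, was 3.42-fold lower (adjusted p = 0.000886) and PTGS2, the inducible cyclooxygenase, 2.88-fold (adjusted p = 0.0139). The inhibitor of apoptosis BIRC3, the superoxide dismutase SOD2, TNFAIP6 and TNFAIP3, a brake on NF-kB, were 2.74-fold, 2.64-fold, 2.64-fold and 2.30-fold lower, with adjusted p of 0.000332, 0.0102, 0.0211 and 2.8e-05. The second 6.7 Gy spot of day 12 for SOD2 was an outlier and was left out. TNF itself stood at -1.18, -2.01, -2.08 and -0.81 on day 12 and ran from -1.21 through -0.21 to 0.58 on day 4. These ranges overlapped, and the difference was 2.23-fold (adjusted p = 0.0164). IL6 and the inhibitor NFKBIA did not pass, with differences of 0.82 and -0.08.

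Among mucosal antimicrobial proteins and oxidases, 5 of 19 were lower and none higher, with a median of -0.41. PI3, the protease inhibitor elafin, stood at 0.10, 1.1, 0.12 and 0.56 on day 12 and ran from 3.58 through 4.09 to 4.75 on day 4, a 13.1-fold difference (adjusted p = 0.000208). LCN2, a lipocalin that withholds iron from bacteria, was 3.83-fold lower (adjusted p = 0.0013), and a second LCN2 probe, well above background on all 12 arrays, differed by -5.20 (adjusted p = 5.1e-05). DUOXA2, the maturation factor of the epithelial oxidase DUOX2, was not well above background on any day 12 or control array and was at least 6.50-fold lower (adjusted p = 0.0254), a call lost under 8 alternatives. REG1A differed by -3.76 ± 1.54 and did not pass (adjusted p = 0.0802), with day 4 arrays spread from -4.72 to 2.61.

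Markers of leukocytes moved less than the chemokines. Of 12 neutrophil genes, 5 were lower and 1 higher, with a median of -0.62. The calprotectin subunits S100A9 and S100A8 were 3.95-fold (adjusted p = 0.0142) and 7.36-fold (adjusted p = 0.0393) lower, and the call of S100A8 was lost under 13 alternatives. The antimicrobial peptide gene CAMP was 5.37-fold lower (adjusted p = 0.0194). AQP9, a water and glycerol channel of neutrophils, was well above background on 2 of 4 day 12 arrays and on no day 4 array. It was higher on day 12 (adjusted p = 0.0309), a call lost under 7 alternatives. The receptor genes CSF3R and CXCR1 differed by 0.26 and 0.21 and did not pass by their brightest probes. Second probes had the opposite sign, at -1.67 for CSF3R, which passed (adjusted p = 0.000333), and -1.31 for CXCR1, which did not (adjusted p = 0.116). The summed level of the list in controls was 1.31 to 1.86. Without the first 7.4 Gy array of day 12, 1 gene of the list passed as lower.

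Of 21 genes of T and NK lymphocytes, 3 were lower (14.3%, against 3.52% of all genes) and none higher, with a median of -0.32. CCR7, the lymph node homing receptor, was 3.75-fold lower (adjusted p = 0.0244), the interleukin-7 receptor IL7R 2.36-fold (adjusted p = 0.0018) and the checkpoint receptor CTLA4 2.20-fold (adjusted p = 0.0277). The call of CCR7 was lost under 4 of 28 alternatives, each of which left out 1 day 12 array, and that of CTLA4 under 3. With the normexp background correction 1 gene of the list passed as lower. The T cell receptor chains CD3D and CD3E differed by -0.44 and -0.72 and did not pass. The summed level was 32.5 to 78.6 on day 12, 46.6 to 72.2 on day 4 and 65.4 to 103 in controls. Of 14 macrophage and monocyte genes, 1 was lower (7.1%, against 3.52% of all genes), the Fc receptor FCGR1A at 2.53-fold (adjusted p = 0.0274). CD14 and CD68 did not pass, with differences of -0.55 and -0.17.

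Of 16 B lymphocyte and plasma cell genes, 2 were higher (12.5%, against 4.13% of all genes) and none lower, with a median of 0.36. RGS13, a signalling regulator of germinal centre B cells, stood at -0.62, -1.94, -3.30 and -4.16 on day 12 and ran from -6.42 through -5.07 to -3.52 on day 4, a 6.18-fold difference (adjusted p = 0.0116). TNFRSF13C, the receptor for the B cell survival factor BAFF, was 2.42-fold higher (adjusted p = 0.00304). MS4A1, the B cell antigen CD20, was well above background on 1 of 4 day 12 arrays, on none of 8 day 4 arrays and on 2 of 4 control arrays. None of 16 genes of dendritic cells and antigen presentation passed by limma, with 3 at an unadjusted p under 0.05 and 1 at most over the alternatives, and the largest difference was that of CD74, the invariant chain, at -0.86 ± 0.18 (adjusted p = 0.00208), under 2-fold.

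Interferon-stimulated genes had 4 of 22 lower (18.2%, against 3.52% of all genes) and a median of -0.60. The share higher, 1 gene or 4.5%, was near the 4.13% of all genes. IDO1, which degrades tryptophan, was 4.77-fold lower (adjusted p = 0.0186), GBP1, a guanylate-binding protein, 2.94-fold (adjusted p = 0.0232), WARS, a tryptophan tRNA synthetase that interferon gamma induces, 2.87-fold (adjusted p = 0.0141) and IFI27 2.79-fold (adjusted p = 0.00708). RSAD2, the antiviral protein viperin, went the other way, at -1.79, -1.78, -0.85 and -1.85 on day 12 and from -4.68 through -3.02 to -2.15 on day 4, a 3.23-fold difference (adjusted p = 0.00904). Its day 4 arrays lay below all controls (-1.69 to -0.30). ISG15 and MX1 did not pass, with differences of -0.62 and -0.85. With the t-test of the study's methods none of the 4 lower genes passed.

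In the connective tissue, 5 of 16 genes of matrix metalloproteinases and inhibitors (31.2%) were lower and none higher. The same held for 3 of 19 of fibroblasts and matrix (15.8%), against 3.52% of all genes lower. The medians of these lists were -0.59 and -0.64. MMP2, a gelatinase of stromal cells, stood at 2.68, 2.48, 2.52 and 2.60 on day 12 and ran from 3.36 through 3.85 to 4.21 on day 4, a 2.45-fold difference (adjusted p = 3.41e-05). TIMP1, an inhibitor of these enzymes, was 2.71-fold lower (adjusted p = 0.00469), ADAMTS1 3.58-fold (adjusted p = 0.00522) and stromelysin (MMP3) 4.19-fold (adjusted p = 0.0398). The call of MMP3 was lost under 8 of 28 alternatives. The collagen genes COL1A2 and COL1A1 were 2.42-fold (adjusted p = 0.0121) and 2.07-fold (adjusted p = 0.00385) lower, with 1 day 12 spot of COL1A1 left out as an outlier. A second probe of COL1A2 differed by -0.14, and the call of COL1A1 was lost under 9 alternatives. Of 10 endothelial genes, 2 were lower (20%, against 3.52% of all genes). They were the adhesion molecule VCAM1 at 2.55-fold (adjusted p = 0.000213) and von Willebrand factor (VWF) at 2.06-fold (adjusted p = 0.00036). The endothelial markers PECAM1 and CDH5 differed by -0.32 and -0.60, both under 2-fold, but a second CDH5 probe, well above background on 2 of 4 day 12 arrays, differed by -1.41 and passed (adjusted p = 0.00371).

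Of 16 genes of ER stress and heat shock, 4 were lower (25%, against 3.52% of all genes) and none higher. CHAC1, a glutathione-degrading enzyme, was 3.25-fold lower (adjusted p = 4.99e-05), the pseudokinase TRIB3 3.24-fold (adjusted p = 0.000613) and asparagine synthetase (ASNS) 2.62-fold (adjusted p = 0.000405). The chaperone HSPH1 was 2.03-fold lower (adjusted p = 0.00394). The chaperone HSPA5 of the unfolded protein response differed by -0.70 and did not pass, and the median of the list was -0.37. Of 17 circadian clock genes, 1 was higher and 1 lower (5.9% each, against 4.13% and 3.52% of all genes). The lower gene was the repressor BHLHE40, at 3.39-fold (adjusted p = 5.81e-05). PER1, PER2 and NR1D1 did not pass, with differences of -0.36, -0.30 and 0.15. None of 12 genes of enteric neurons and glia passed by limma, with 1 at an unadjusted p under 0.05 and at least 2-fold and 1 at most over the alternatives, with a median of -0.40, and tachykinin (TAC1) had the largest difference at -1.01 (adjusted p = 0.0871).

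**Figure D4:**
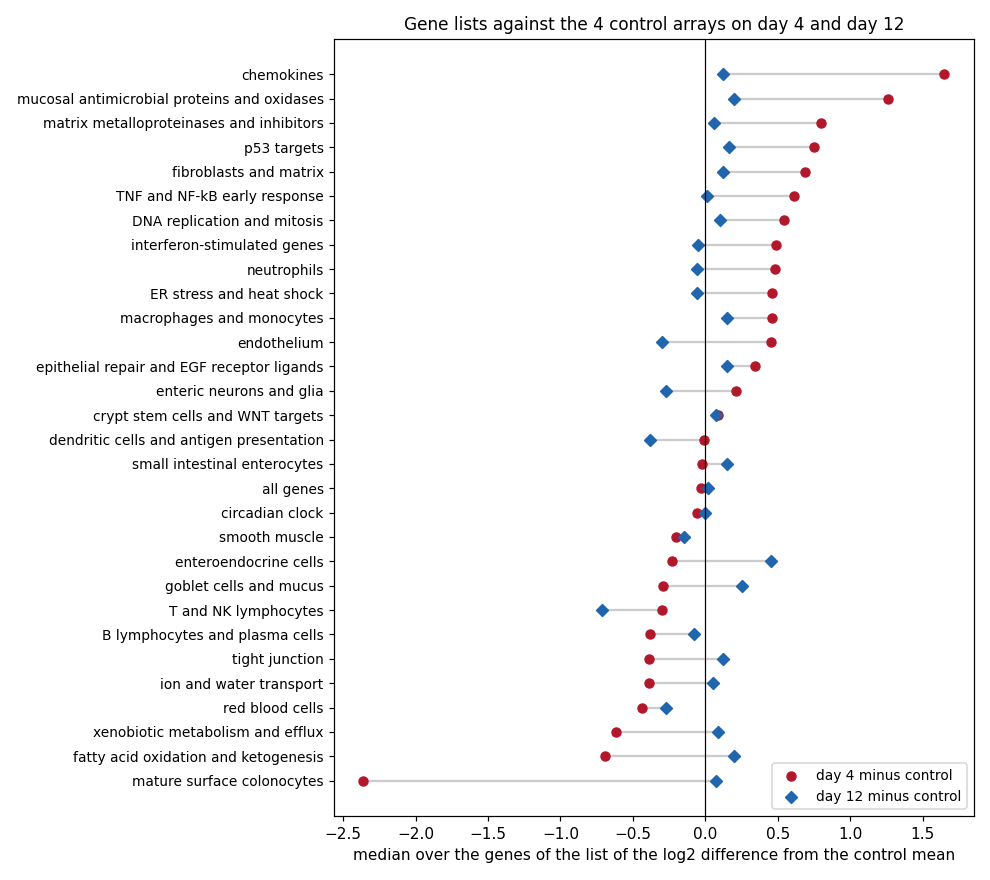
Median over the genes of each list (rows) of the log2 difference from the mean of the 4 control arrays (x axis), for day 4 (circles) and day 12 (diamonds). Both points of a row share the control arrays. The colonocyte median is -2.36 on day 4 and 0.07 on day 12, and the chemokine median is 1.65 on day 4 and 0.12 on day 12.

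Against control, 8 named genes (0.0595%) passed on day 12, among them ABCC2 at 1.48 above control (adjusted p = 0.0422). The largest difference was that of HBB, the beta chain of adult haemoglobin, carried into the tissue by red blood cells. It stood at 2.17 to 3.38 in controls, at -4.52 to -1.84 on day 4 and at -2.08, -2.59, -1.58 and 1.14 on day 12, so that day 12 lay below control by 4.09 ± 0.65 (adjusted p = 0.0256) while it was 3.63-fold above day 4 (adjusted p = 0.0208). The second 7.4 Gy array of day 12 was the highest, and the day 12 against day 4 call was lost under 5 alternatives. HBA2, the alpha chain, did not pass against day 4, with a difference of -0.14 by its brightest probe. A second HBA2 probe, well above background on all 12 arrays, differed by 0.91 (adjusted p = 0.0287), under 2-fold. HEMGN, a nuclear protein of red cell precursors, was not well above background on any day 4 array. It was at least 2.34-fold higher on day 12 (adjusted p = 0.00381), a call lost with the normexp background correction. Of 8 red blood cell genes, 2 were higher (25%, against 4.13% of all genes) and none lower. The summed level of the list was 135 to 158 on day 12, 135 to 211 on day 4 and 137 to 268 in controls.

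The other genes named for their distance from control on day 12 took different courses. PDK4, the kinase that spares glucose by shutting pyruvate dehydrogenase, was higher than control by 1.95 ± 0.31 (adjusted p = 0.0256) and its difference from day 4 was 0.34 ± 0.27 (adjusted p = 0.37). SERPINA2 was lower than control by 2.17 on the log2 scale (adjusted p = 0.00155), and its difference from day 4 was 0.81 ± 0.24, under 2-fold. ANKRD65, an ankyrin repeat protein, was well above background on no control array, on 1 of 4 day 12 arrays and on all 8 day 4 arrays. Its mean was -4.724 on day 12 and -6.825 in controls (adjusted p = 0.0477). It was 9.06-fold lower than on day 4 (adjusted p = 1.33e-05). The size of both differences rests on signals near background. MSN, the membrane-cytoskeleton linker moesin, stood at -2.15, -2.45, -2.94 and -2.64 on day 12, below both control (-1.36 to -0.63) and day 4 (-1.89 to -0.36). It was lower than control by 1.58 ± 0.27 (adjusted p = 0.0339), and CD96, a receptor of T and NK cells, by 1.76 ± 0.33 (adjusted p = 0.0463), with 1 of 4 day 12 arrays well above background.

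Each gene above is given by its probe with the highest mean level. Of the 191 genes named, 77 had other probes in the fit, 93 in all, of which 70 had the same call as the probe used and none was called in the opposite direction. Second probes of CCR7, CLCA1, FCGR1A and DUOXA2 differed by -0.23, 0.49, 0.22 and -0.33 and did not pass, those of CDHR5 by 0.48 and 0.97, and those of PAX6, PTGS2, CTLA4, COL1A1 and TNF by 0.19, -1.39, -0.89, -0.68 and -0.97. Second probes of S100A9 and CXCL11 passed with larger differences, -3.84 and -4.07. Other probes of NOS2 passed with a larger and a smaller difference, -4.98 and -2.11, and a further probe of PTGS2 passed at -1.81.

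At the doses taken apart, 1433 probes (3.75%) differed between the days after 6.7 Gy and 1968 (5.15%) after 7.4 Gy, each with 2 day 12 arrays. Without the first 6.7 Gy array of day 12 the count after 6.7 Gy was 134, and without either 7.4 Gy array of day 12 the count after 7.4 Gy was 1026 or 838. By limma, no probe passed for a change of the difference between doses, with 578 at an unadjusted p under 0.05 and at least 2-fold. Of the 24 genes with the highest and lowest differences, 16 passed within 6.7 Gy and 19 within 7.4 Gy, where 591 (4.39%) and 824 (6.13%) of all genes passed. The 24 genes were chosen on the mean of both dose differences, so that these counts carry no test of the doses. Their dose terms ran from -2.63 ± 1.45 for SERPINB5 to 3.46 ± 1.42 for CHP2. The median difference of the colonocyte list was 2.04 at 6.7 Gy and 3.00 at 7.4 Gy, that of the chemokine list -1.19 and -1.35, and that of the p53 targets -0.53 and -0.74.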

How the data were processed

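Colon RNA of 24 animals, 1 per array, was measured on 1-colour Agilent rhesus arrays. Per the file headers, the deposited Feature Extraction files hold background-subtracted processed signal intensity for each spot. The authors' own normalized table holds log2 values, scaled in GeneSpring to the 75th percentile of each array, and served as an alternative. Here the processed signal was taken to log2, and the 75th percentile on each array was subtracted. Control and outlier spots were left out, and spots of 1 probe were averaged.

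Of 43603 probes, 38234 had at least 2 arrays, among all 24, with a signal well above background, and 38214 could be fitted. All 24 arrays and 7 groups of dose and day entered a linear model in limma 3.58.1 (R 4.3.3) with empirical Bayes moderation, so that all groups shared 1 estimate of the spread. Day 12 against day 4 was the mean of the differences at both doses. A probe was called at a Benjamini-Hochberg adjusted p under 0.05 and at least 2-fold. The script was tested on simulated data. A gene was represented by its brightest probe on average, and 18640 probes were named by the files, 3184 through the gene ID of a LOC number and 84 by accession, with the RefSeq gene table used for names only. The genes named were the 12 highest and 12 lowest called genes whose arrays did not overlap, members of 29 gene lists (at least the called member with the largest difference in each direction), up to 4 genes called for a change between doses, and the 6 called genes farthest from control on day 12. Genes and lists were chosen with earlier results of these data known. Alternatives covered background correction, scaling, filters, the t-test of the study's methods, slide, scan day and replicate number as blocks, and each array left out. Precision rests on 4 and 8 arrays. Some genes that this rule names are not reported here. Genome coordinates and sequences were not used here.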

Additional observations from a re-analysis of the deposited data

Results flagged for a closer look

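Among the 191 genes named, 28 of 567 groups of 4 to 8 arrays held 1 array whose gap to its nearest neighbour, divided by the range of the group, exceeded the 95% critical value of Dixon's test. Chance gives about 1 in 20 groups. The causes were not tested.

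On day 12, 6.7 Gy replicate 1 stood apart for MDM2 at 1.07 (nearest array 0.57). On day 12, 6.7 Gy replicate 2 stood apart for CCL19 at -0.84 (nearest array -0.55). On day 12, 7.4 Gy replicate 1 stood apart for DUOX2 at -2.52 (nearest array -3.47), NFKBIA at 3.17 (nearest array 3.50) and RSAD2 at -0.85 (nearest array -1.78). On day 12, 7.4 Gy replicate 2 stood apart for APOC3 at -3.35 (nearest array -2.50), PROM1 at 0.22 (nearest array -0.42) and TFF2 at 2.67 (nearest array 0.92).

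On day 4, 6.7 Gy replicate 2 stood apart for LCN15 at -3.99 (nearest array -1.13) and MMP3 at 2.50 (nearest array -0.85). On day 4, 6.7 Gy replicate 4 stood apart for ASCL2 at -1.78 (nearest array -0.90), CPS1 at -0.20 (nearest array -3.01), EDA2R at -0.05 (nearest array 0.79) and NR1D1 at 4.50 (nearest array 4.15). On day 4, 7.4 Gy replicate 3 stood apart for C13H2orf74 at -3.99 (nearest array -6.96), TFF3 at 2.71 (nearest array 4.38) and ZG16 at 4.55 (nearest array 6.58). On day 4, 7.4 Gy replicate 4 stood apart for CXCR1 at -5.06 (nearest array -3.70).

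Among the controls, replicate 1 stood apart for BHLHE40 at -1.58 (nearest array -2.0), CD3D at 0.00 (nearest array 1.92), CD3E at -0.35 (nearest array 0.93), CDH5 at -2.71 (nearest array -2.53), HSD11B2 at 8.15 (nearest array 7.34), RSAD2 at -0.30 (nearest array -1.64) and TIMP1 at 3.98 (nearest array 3.15). Among the controls, replicate 2 stood apart for BEST2 at 0.55 (nearest array 1.63) and CPS1 at -7.01 (nearest array -5.68). Among the controls, replicate 4 stood apart for MUC2 at 4.11 (nearest array 4.25).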

How the results depend on the processing

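The 2486 probes that differed between day 12 and day 4 became 1213 with normexp background correction and 9350 with no fold threshold, and stayed within 1.5 times the count under the other alternatives. Leaving out 1 array gave 2142 to 2770. Quantile normalization moved the split from 1463 higher and 1023 lower to 1276 and 1310. The count after 6.7 Gy was 928 with normexp, 0 with the adjusted t-test of the study's methods (1987 at its unadjusted p), 277 with slide as a block, 377 at an adjusted p under 0.01 and 2739 with no fold threshold. After 7.4 Gy it was 1235, 14 with that t-test, 952 at an adjusted p under 0.01 and 3535. Leaving out 1 array gave 134 to 1698 and 838 to 2221. Day 4 against control gave 1124 probes with normexp, 8280 with no fold threshold, 2018 to 2438 without 1 array, and 2132 higher and 627 lower with spike-in scaling against 1044 and 1154. Day 12 against control gave 24, and 67 with spike-in scaling (60 higher and 7 lower), 14 with no filter, 2 with the adjusted t-test and 424 at its unadjusted p, 5 with slide, 8 with scan day and 12 with the replicate number as a block, 4 at an adjusted p under 0.01, and 6 to 34 without 1 array (6 without the first 6.7 Gy array of day 12, 34 without the second 6.7 Gy array of day 4). For the change between doses, leaving out 1 array gave 0 to 7. The causes were not tested. With the replicate number as a block, day 12 against day 4 gave 2637 probes. Each array came from a different animal, and the numbers were not taken as pairs. Deviations of same-numbered arrays correlated from -0.181 to 0.195 and 5 of 12 pairs exceeded 0.1, which cannot show whether the numbers pair the arrays. None of the 144 named genes that passed changed sign, and 12 of the 47 that did not pass did. Array position could not be fitted as a block. For genes well above background on few arrays of a day, the size of the fold rests on signals near background.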
